A study of Homo sapiens with 18 samples.

Results

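Box C/D small nucleolar RNAs (snoRNAs) were followed in ZR-75-1, an established cell line from an oestrogen receptor-positive, luminal breast cancer. They were taken as rows of the count files whose gene IDs map to symbols of SNORD plus a number, with an optional letter or copy number, on the autosomes or X, and with at least 50 counts summed over 18 libraries. This gave 63 of 389 such SNORD rows, among 60252 gene IDs. Of the 389 rows, 172 had 0 counts in all libraries. The choice used only total counts, not any difference between groups. Just inside the limit stood SNORD85 with 52, SNORD7 with 53 and SNORD58 with 54 counts, and just outside it SNORD114-3 with 49, SNORD82 with 48 and SNORD1B with 46. 56 members passed the low-count filter of the test. The 7 that did not were SNORD59A, SNORD116-2, SNORD116-8, SNORD71, SNORD58, SNORD7 and SNORD85.

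The series compared an ADAR knockdown line with a control line labelled SHC. ADAR edits RNA duplexes, changing adenosines to inosines, and triptolide is an inhibitor of transcription by RNA polymerase II. The 6 groups were knockdown cells with 100 nM triptolide, knockdown cells with DMSO as vehicle, untreated knockdown cells, control cells with 100 nM triptolide, control cells with DMSO, and untreated control cells, each kept for 16 h and each with 3 biological replicates. All groups were ZR-75-1 cells in low-serum medium, the knockdown and the control each came from 1 line, and how the knockdown was made and whether a line is 1 clone are not given in the sources used here. The libraries were stranded total RNA libraries made from column-purified RNA. Such columns bind short RNA poorly, and the part of this in the values was not tested.

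A box C/D snoRNA carries a C box near its 5′ end and a D box near its 3′ end, which are brought together and bound by a set of core proteins, with fibrillarin as the methyltransferase. Most members guide methylation of the ribose in ribosomal or spliceosomal RNA. In humans most lie inside introns of host genes, whose spliced introns release them. U3 (SNORD3 rows) has its own promoter and acts in cleavage of the ribosomal RNA precursor. SNORD116 copies, called orphan because no ribosomal target is known for them, lie in the imprinted SNHG14 transcript of the Prader-Willi region.

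Members whose values carry the results are shown first, as GRCh37 sequence, 5′ to 3′ on the snoRNA strand, written as DNA with the letters TGATGA (C box) near the 5′ end and the CTGA (D box) nearest the 3′ end in capitals. SNORD14E (chr11:122928785-122928869, minus strand, inside HSPA8) and SNORD14A (chr11:17096201-17096291, minus strand, inside RPS13) are related copies with different hosts. SNORD12B (chr20:47896856-47896946, plus strand) and SNORD12C (chr20:47895477-47895565, plus strand) share the host ZFAS1. SNORD17 (chr20:17943353-17943589, minus strand, inside SNX5) is an abundant and longer row.
SNORD14E: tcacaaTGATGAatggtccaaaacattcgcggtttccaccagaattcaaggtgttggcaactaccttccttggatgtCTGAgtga
SNORD14A: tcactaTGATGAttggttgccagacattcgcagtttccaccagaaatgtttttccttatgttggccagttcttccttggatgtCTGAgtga
SNORD12B: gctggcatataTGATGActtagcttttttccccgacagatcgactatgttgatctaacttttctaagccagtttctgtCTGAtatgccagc
SNORD12C: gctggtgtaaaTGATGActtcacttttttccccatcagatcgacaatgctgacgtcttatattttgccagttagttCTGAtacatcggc
SNORD17: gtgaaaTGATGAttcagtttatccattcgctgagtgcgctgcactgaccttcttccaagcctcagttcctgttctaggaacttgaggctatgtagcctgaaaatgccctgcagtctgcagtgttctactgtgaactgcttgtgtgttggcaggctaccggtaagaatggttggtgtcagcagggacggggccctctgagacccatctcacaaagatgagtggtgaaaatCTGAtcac

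The 4 SNORD116 copies below show how alike rows of this cluster are; reads with several alignments were tallied apart and not given to a gene. They lie on chromosome 15, plus strand: SNORD116-1 at chr15:25296624-25296718, SNORD116-17 at chr15:25328735-25328826, SNORD116-18 at chr15:25330532-25330623 and SNORD116-19 at chr15:25331674-25331765. SNORD116-17 and SNORD116-19 are the same sequence (100% identity), and SNORD116-18 is 98.9% identical to both.
SNORD116-1: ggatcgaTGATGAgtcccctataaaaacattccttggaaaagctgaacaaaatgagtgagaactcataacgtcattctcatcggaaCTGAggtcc
SNORD116-17: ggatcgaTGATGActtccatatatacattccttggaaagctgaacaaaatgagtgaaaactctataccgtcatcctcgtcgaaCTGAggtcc
SNORD116-18: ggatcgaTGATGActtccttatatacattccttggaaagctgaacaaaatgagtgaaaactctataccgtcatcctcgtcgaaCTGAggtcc
SNORD116-19: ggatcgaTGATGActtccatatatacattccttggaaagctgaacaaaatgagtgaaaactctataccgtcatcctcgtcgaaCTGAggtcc

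The letters TGATGA were found on the given strand in 49 of 63 members (77.8%), against 4.33% of 4205 random windows of the same lengths and 3.28% of box H/ACA (SNORA) rows. On the opposite strand 1.59% of members held them. CTGA, which is shorter, was found in all 63 members and in 40.6% of the random windows. No match says only that these letters are not in the window: SNORD117, for example, held CTGA and not TGATGA. 59 members had 1 exact copy in the genome, and 16 were over 90% identical to another annotated SNORD.

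Annotated lengths ran from 65 to 791 nt with a median of 91 nt, and 49 members were under 100 nt. A host gene on the same strand spanned 60 members, 36 hosts in all, and the 3 without one were SNORD3A, SNORD3B-1 and SNORD3B-2. The rows of SNORD3A, SNORD3B-1 and SNORD3B-2 are 699, 758 and 791 nt long, far longer than the mature U3 RNA. The symbols SNORD19 and SNORD63 each name 2 rows, which are told apart by their lower or higher start. A read counted in a row may come from the free snoRNA or from the host's intron, and these cannot be told apart. SNORD116-7, SNORD116-17, SNORD116-19 and SNORD103B each have 2 exact copies in the genome. Reads wholly inside such a copy align to both places and are tallied outside genes. Counts of these rows therefore rest on reads that reach past the copied sequence.

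Libraries held 26.7e6 to 35.7e6 counts in genes, of which the members took 0.00451 to 0.0313%. Mitochondrial ribosomal RNA took 42.7 to 55.2% of counts with triptolide, against 20.2 to 37.1% without it. ADAR mRNA stood at 31.2 to 44.4% of the control library of the same number with triptolide, and at 51 to 77.5% in the DMSO and untreated pairs. All 10 luminal markers reached 1 CPM (counts per 1000000 counts of the TMM-scaled library) in the mean of all libraries. So did 1 of 4 basal-like, 1 of 4 leukocyte, 1 of 4 stromal and 1 of 3 endothelial markers. Under triptolide CD14, a leukocyte marker, was called higher, at 0.94 ± 0.63 CPM with triptolide and 0.01 ± 0.02 CPM with DMSO in knockdown cells, and 1.16 ± 0.34 and 0.01 ± 0.01 CPM in control cells (SD, n = 3 each). TP63, a basal-like marker, was called higher too. The 4 basal-like markers summed to 5.0 to 7.53 CPM with triptolide and 1.66 to 4.09 CPM with DMSO in knockdown cells, and to 2.16 to 4.74 and 1.74 to 2.72 CPM in control cells. The 4 stromal markers summed to 14.2 to 33.1 CPM with triptolide and 8.55 to 16.4 CPM with DMSO in knockdown cells, and to 13.6 to 21.3 and 11.5 to 14.3 CPM in control cells. The 3 endothelial markers summed to 2.47 to 3.87 CPM with triptolide and 0.823 to 1.99 CPM with DMSO in knockdown cells, and to 1.94 to 5.17 and 1.06 to 2.84 CPM in control cells. When the replicate number was added as a block, COL1A1 and PDGFRB (stromal) and VIM (basal-like) were called higher in knockdown cells and VWF (endothelial) in both lines. Of the 10 luminal markers 4 (ESR1, GATA3, FOXA1, XBP1) were called lower in each line; with the block 6 were lower in each, and 3 higher in knockdown and 4 in control cells. PTPRC, the common leukocyte antigen, had 0 counts in control cells with DMSO. Their part in the snoRNA results was not tested. In bulk libraries fewer cells with an RNA and less of it per cell cannot be told apart.

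SNORD15B and SNORD17 made up 71.1% of all member counts, with 37680 and 22234 counts. Per length, SNORD15B averaged 521 CPM per kilobase over the 18 libraries and SNORD17 187 CPM per kilobase. They were followed by SNORD116-18 at 60.6, SNORD116-19 at 49.6, SNORD14E at 32.4 and SNORD12B at 25.4 CPM per kilobase. Reads lying wholly inside the sequence of SNORD116-19 are outside its value. At the other end, 31 of 63 members had fewer than 200 counts over all libraries, which is a few reads per library. Intervals and floors given here cover counting error only.

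With triptolide some box C/D snoRNA rows were called lower in each line. Against DMSO, 17 of 56 tested members were lower and 0 higher in knockdown cells, beside 18.9% lower and 16.7% higher among all 21285 genes tested. In control cells again 17 were lower and 0 higher, beside 16.0% lower and 14.9% higher among all genes. Calls are by the edgeR quasi-likelihood test with a Benjamini-Hochberg adjusted p under 0.05 over all genes. At an unadjusted p under 0.05, 24 members were lower and 0 higher in each line. DESeq2 called 18 lower in knockdown cells and 20 in control cells, with 0 higher in both. For these counts the share of all genes is not given here. Since libraries of the same number pair, the count was repeated with the replicate number as a block. It then came to 24 lower and 2 higher (SNORD116-19, SNORD94) in knockdown cells, beside 28.1% lower and 29.1% higher among all genes. With the block, control cells had 25 lower and 2 higher (SNORD17, SNORD116-13), beside 26.0% and 26.1%. The members could pass the filter through their untreated and DMSO libraries alone, and the 56 that did are not all members.

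The median change over the 56 members was a log2 of -0.96 in knockdown cells and -1.26 in control cells, beside 0.04 and 0.03 over all genes tested. Of these members, 5 in knockdown and 2 in control cells had 0 counts in the triptolide group. They lie below the medians both as fitted and at bounds from a floor of 3 counts per group. Setting them at these bounds could not move the medians and is no check of them. The medians depend on single libraries: without knockdown DMSO replicate 1 the knockdown value was -0.56, without knockdown triptolide replicate 1 it was -1.68, and without control triptolide replicate 1 the control value was -1.93. 9 of the 56 members were lower in both lines, which is 52.9% of each line's 17, and 25 were lower in either. Over all genes tested 14.3% were lower in both lines, which is 75.7% of the genes lower in knockdown and 89.7% of those lower in control cells. The 9 of 56 members lie near the 14.3% of all genes and are not read as a result about the members. With the block 17 members were lower in both lines (70.8% of 24 in knockdown and 68% of 25 in control cells) and 32 in either, beside 23% of all genes lower in both (82% of those lower in knockdown and 88.5% of those lower in control cells). The change differed between the lines for 0 members in the interaction test, beside 0.0% of all genes, and at an unadjusted p under 0.05 for 1 member in each direction (with the block 2 higher and 0 lower).

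**Figure D1:**
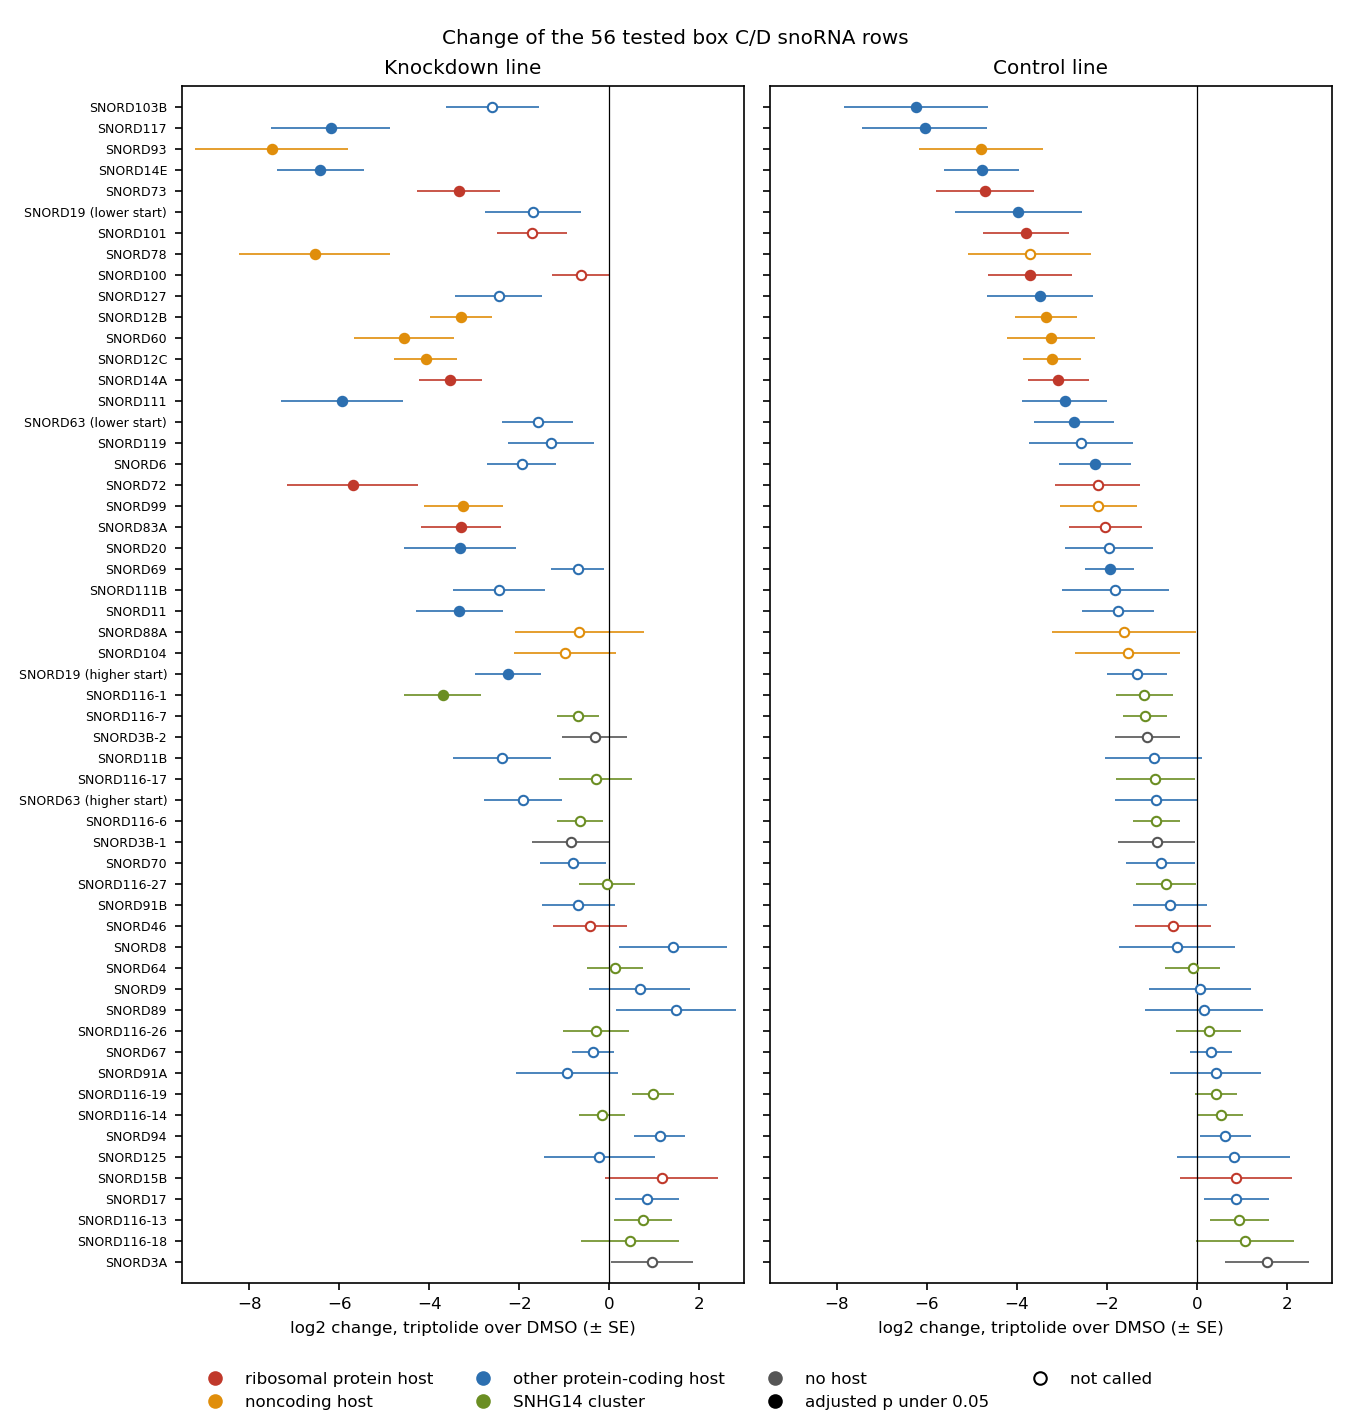
Log2 change with triptolide over DMSO, with its standard error, for the 56 tested box C/D snoRNA rows in the knockdown line and in the control line, ordered by the control line and coloured by host class. Filled points had an adjusted p under 0.05; all 17 of them in each line lie below 0, and fitted values of rows with 0 counts in a triptolide group are no bounds.

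SNORD14E, inside HSPA8, the gene of the constitutive chaperone HSC70, had the highest level among the rows that fell in both lines. It stood at 0.135, 0 and 0 CPM in knockdown libraries with triptolide, against 4.81, 1.82 and 5.28 CPM with DMSO. In control cells it stood at 0.169, 0.145 and 0.1 CPM with triptolide, against 3.71, 1.93 and 6.26 CPM with DMSO. The groups did not overlap in either line. Pooled over 3 libraries, knockdown cells gave 3 counts with triptolide and 452 with DMSO, a ratio of 0.0105 (exact 95% counting interval 0.00215 to 0.0308). In control cells the log2 change was -4.79 ± 0.84 (SE, adjusted p = 0.000417). HSPA8 itself fell by 4.22 ± 0.48 in knockdown cells (adjusted p = 7.45e-06) and by 3.83 ± 0.47 in control cells (adjusted p = 2.3e-05) on the log2 scale. HSPA8 stood at 117, 138 and 276 CPM in knockdown libraries with triptolide, against 3190, 2144 and 4537 CPM with DMSO. Both the row and its host fell.

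Several other rows fell while their host genes were not called lower. SNORD12B and SNORD12C lie in ZFAS1, a noncoding host gene. SNORD12B stood at 0.315, 0.0935 and 0.429 CPM in knockdown libraries with triptolide, against 4.4, 1.44 and 2.64 CPM with DMSO. In control cells it stood at 0.635, 0.0968 and 0.351 CPM with triptolide, against 4.24, 2.41 and 4.74 CPM with DMSO. The triptolide libraries lay below every DMSO library in both lines. The log2 changes were -3.29 ± 0.69 (SE, adjusted p = 0.00145) and -3.36 ± 0.68 (adjusted p = 0.00138). SNORD12C, the other member in ZFAS1, changed by -4.08 ± 0.70 (adjusted p = 0.000288) in knockdown cells and by -3.23 ± 0.64 (adjusted p = 0.00115) in control cells. ZFAS1 averaged 240 ± 68.5 CPM with triptolide and 158 ± 49.5 CPM with DMSO in knockdown cells, and 177 ± 52.7 and 152 ± 44.6 CPM in control cells (SD, n = 3 each). The ZFAS1 log2 changes of 0.60 (adjusted p = 0.182) and 0.22 (adjusted p = 0.676) did not pass the test without the block; with the block the adjusted p was 0.000161 in knockdown cells. ZFAS1 lay above the median gene under every scaling run, by 0.56 to 0.62 in knockdown and 0.18 to 0.30 in control cells on the log2 scale, and below 0 under library totals and mitochondrial mRNA scaling.

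**Figure D2:**
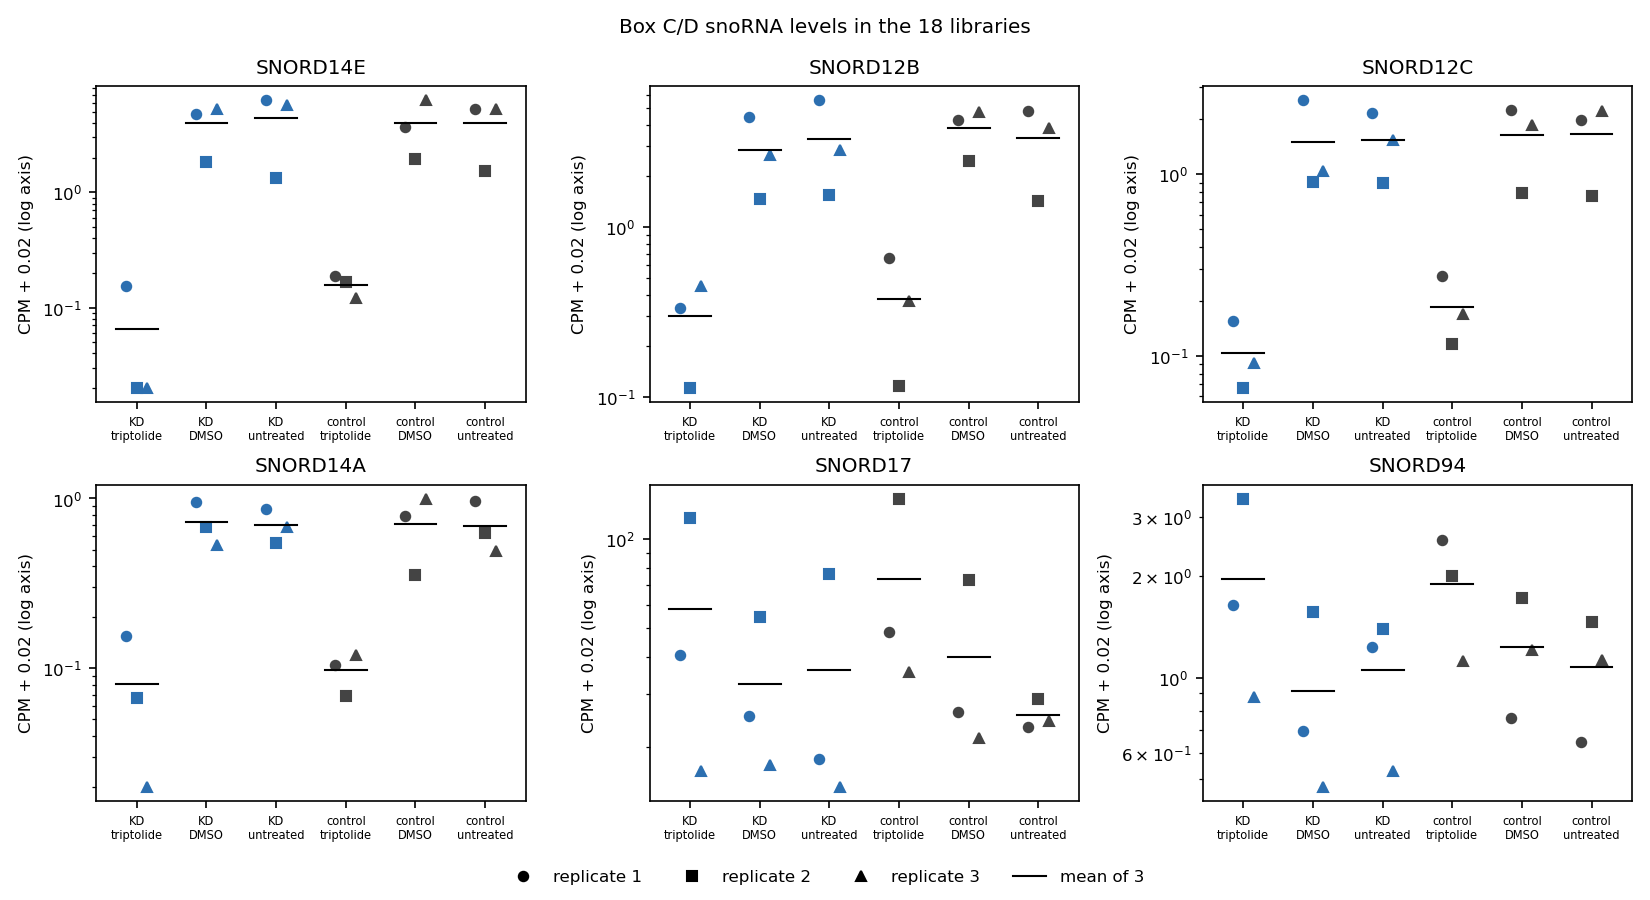
Level of 6 box C/D snoRNA rows, as TMM-scaled CPM plus 0.02 on a log axis, in each of the 18 libraries, with triptolide left of DMSO and untreated within each line (KD, knockdown) and the mean of 3 as a bar. SNORD14E, SNORD12B, SNORD12C and SNORD14A stand lower in every triptolide library than in every DMSO or untreated library, and SNORD17 and SNORD94 do not.

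SNORD14A, a relative of SNORD14E at 77.4% identity, lies in RPS13, a gene of the small ribosomal subunit. It stood at 0.135, 0.0467 and 0 CPM in knockdown libraries with triptolide, against 0.939, 0.663 and 0.511 CPM with DMSO. In control cells the values were 0.0847, 0.0484 and 0.1 CPM with triptolide, against 0.766, 0.336 and 0.968 CPM with DMSO. Again the groups did not overlap. Its log2 changes were -3.54 ± 0.70 (SE, adjusted p = 0.000884) and -3.08 ± 0.68 (adjusted p = 0.00239). RPS13 rose over the same comparisons, by 0.81 ± 0.18 (adjusted p = 0.00182) and 0.73 ± 0.18 (adjusted p = 0.00438), but stood at -0.59 and -0.02 when scaled to mitochondrial mRNAs. Relative to the median gene RPS13 lay 0.76 to 0.78 higher in knockdown and 0.70 to 0.77 higher in control cells under the 5 scalings, while HSPA8 lay below it under each.

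SNORD73, in RPS3A, gave 3 counts pooled with triptolide and 53 with DMSO in knockdown cells, a ratio of 0.0894 (0.0179 to 0.276). In control cells it gave 1 and 54 counts, a ratio of 0.0304 (0.000756 to 0.177). RPS3A, its host, had log2 changes of 0.73 (adjusted p = 0.0273) and 0.57 (adjusted p = 0.0867; with the block 0.000393). SNORD60, in the noncoding host SNHG19, gave 2 and 85 counts in knockdown cells, a ratio of 0.0372 (0.00443 to 0.138). In control cells SNORD60 had 0, 0.242 and 0 CPM with triptolide, so only replicate 2 held reads, against 0.957, 0.397 and 1.00 CPM with DMSO. Its adjusted p of 0.0175 there became 0.0717 without control triptolide replicate 1 and 0.0609 without replicate 3.

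SNORD117 and SNORD93 had almost no reads left with triptolide. SNORD117, inside the helicase gene DDX39B, had 0 counts in all 6 triptolide libraries, so it was at least 7.18-fold lower in knockdown and at least 5.68-fold lower in control cells, against a floor of 3 counts over a group. Its adjusted p was 0.0026 in knockdown and 0.00466 in control cells, while DDX39B had log2 changes of 0.13 and -0.46 (adjusted p = 0.852 and 0.504; with the block 0.0313 in control cells). SNORD93, in the noncoding gene SNHG26, had 0 counts in knockdown cells with triptolide and 87 with DMSO, at least 18.4-fold lower. In control cells its adjusted p of 0.0149 became 0.061 without control triptolide replicate 1 and 0.0516 without replicate 2. SNHG26 fell by 2.52 ± 0.50 (SE, adjusted p = 0.000905) in knockdown and by 2.53 ± 0.50 (adjusted p = 0.00105) in control cells. The ninth member lower in both lines, SNORD111 in the splicing factor gene SF3B3, was not chosen by the naming rule and is added to complete the count. It had 0 counts in knockdown cells with triptolide and 28 with DMSO, and in control cells it changed by -2.94 ± 0.95 (adjusted p = 0.0272).

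Of the 8 rows in ribosomal protein genes, 7 had log2 changes below 0 while their hosts stood above 0 after TMM scaling. Of 8 members in 7 such hosts, 4 were lower in knockdown cells (SNORD14A, SNORD73, SNORD72, SNORD83A) and 4 in control cells (SNORD14A, SNORD73, SNORD101, SNORD100), with median log2 changes of -2.51 and -2.65. With the block 5 were lower in knockdown and 6 in control cells, SNORD83A, SNORD72 and SNORD101 then in both lines. Among all genes tested 18.9% were lower in knockdown and 16.0% in control cells, and 28.1% and 26.0% with the block. The hosts themselves had log2 changes of 0.72 to 1.03 in knockdown cells, with 6 of 7 called higher, and 0.57 to 0.99 in control cells, with 5 of 7 called higher (with the block 7 of 7 in each line). Beside them, 16.7% of all genes were higher in knockdown and 14.9% in control cells, and 29.1% and 26.1% with the block. That direction of the hosts turns with scaling to mitochondrial mRNAs, where 0 of 7 in knockdown and 1 of 7 in control cells lay above 0, while 7 of 8 members lay below 0 under each of the 5 scalings. Relative to the median gene, the hosts' median lay 0.62 to 0.73 higher on the log2 scale under each scaling in either line. The exception among the members was SNORD15B in RPS3.

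Noncoding hosts, of which ZFAS1, GAS5 and the SNHG genes are examples, held 9 members. Of the 8 tested, 6 were lower in knockdown and 4 in control cells (with the block 6 and 7), with medians of -3.68 and -3.24. They include SNORD78 in GAS5 and SNORD99 in SNHG12, called in knockdown cells and, with the block, in both lines. Of the 26 tested members in other protein-coding hosts, 6 were lower in knockdown and 9 in control cells (with the block 12 and 9), with medians of -1.64 and -1.54. Of the 3 U3 rows, 0 were called without the block, and their log2 changes ranged from -0.86 to 0.95 in knockdown and from -1.10 to 1.56 in control cells. Of 11 tested members of the SNHG14 cluster, 1 was lower in knockdown and 0 in control cells, with ranges from -3.71 to 0.97 and from -1.18 to 1.06. With the block 1 was lower and 1 higher in each line. Among all genes tested 18.9% were lower in knockdown and 16.0% in control cells, and 28.1% and 26.0% with the block. The 6 of 26 members in other protein-coding hosts called in knockdown cells lie near the 18.9%. These host classes are small and were not tested as sets.

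Across members, the changes of row and host were nearly uncorrelated. Over the 53 members with a tested host, the Spearman correlation of the log2 changes was -0.03 in knockdown and 0.06 in control cells, given as a description, since members in 1 host share its value and all share the libraries. The member's change lay below its host's for 37 of 53 in knockdown and 36 of 53 in control cells. Of the 17 called lower in each line, 9 in knockdown and 8 in control cells had a host with a log2 change above 0 after TMM scaling, and 0 and 2 did when scaled to mitochondrial mRNAs. The hosts of 9 in knockdown and 7 in control cells lay above the median gene under each of the 5 scalings. GNL3, a nucleolar GTP-binding protein gene with 3 members (both SNORD19 rows and SNORD69), fell by 2.49 ± 0.27 and 2.03 ± 0.27 (SE, adjusted p = 5.87e-06 and 4.33e-05), and its members ranged from -2.25 to -0.70 in knockdown and from -3.97 to -1.33 in control cells. 1 of them (SNORD19 of higher start) was called in knockdown and 2 (SNORD19 of lower start, SNORD69) in control cells. NOP58, which encodes a core box C/D protein and hosts SNORD11, SNORD11B and SNORD70, had log2 changes of -0.13 and 0.08 (adjusted p = 0.736 and 0.842), while its members ranged from -3.33 to -0.81 and from -1.75 to -0.81. Of these, SNORD11 in knockdown cells passed the test (adjusted p = 0.0128), and with the block SNORD11B too (adjusted p = 0.0302).

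**Figure D3:**
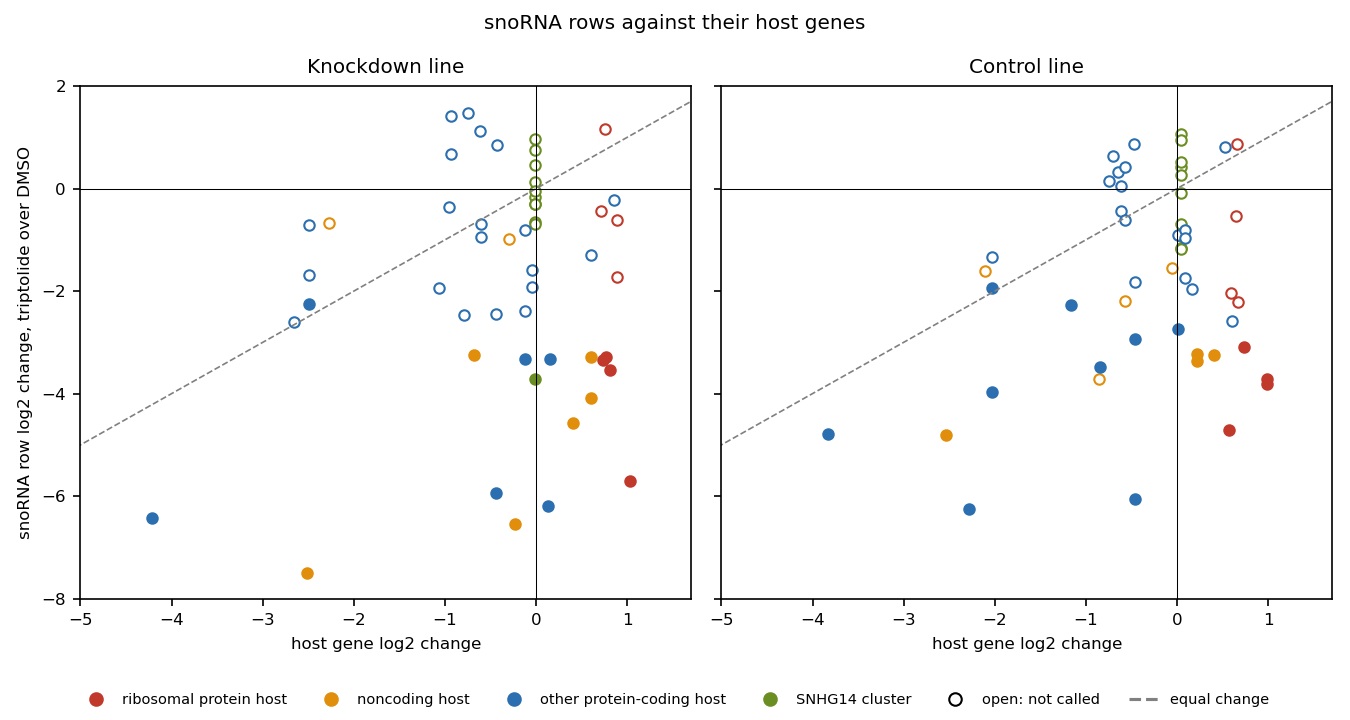
Log2 change with triptolide over DMSO of each snoRNA row against that of its host gene, in the knockdown line and the control line, coloured by host class; filled points were called and the dashed line marks equal change. 37 of 53 rows in knockdown and 36 of 53 in control cells lie below the line, and the rows in ribosomal protein genes lie right of 0.

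Without the block, the rows called lower were all under 100 nt. Of 42 tested members under 100 nt, 17 were lower in each line, with median log2 changes of -2.10 in knockdown and -1.99 in control cells. Of 14 members of 100 nt or more, 0 were called, with medians of 0.41 and 0.10. Length here is that of the annotated row, which need not be that of the snoRNA. Among the longer rows, SNORD64 (310 nt) is annotated as sense intronic. SNORD91A (191 nt), SNORD91B (222 nt) and the U3 rows hold no CTGA near the row's 3′ end. With the block 24 of the 42 shorter rows were lower in knockdown and 23 in control cells, with 1 higher in each line. Among all genes tested 18.9% were lower in knockdown and 16.0% in control cells, and 28.1% and 26.0% with the block. The limit of 100 nt was set after the values were seen, so the split is a description. Over 56 members the Spearman correlation of log2 change with length reached 0.62 in knockdown and 0.72 in control cells, and with total counts 0.37 and 0.30. With the block, 2 of the 14 longer rows were lower in control cells (SNORD3B-1 and SNORD3B-2) and 1 in each line higher. The share that intron reads have in long and short rows was not tested.

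**Figure D4:**
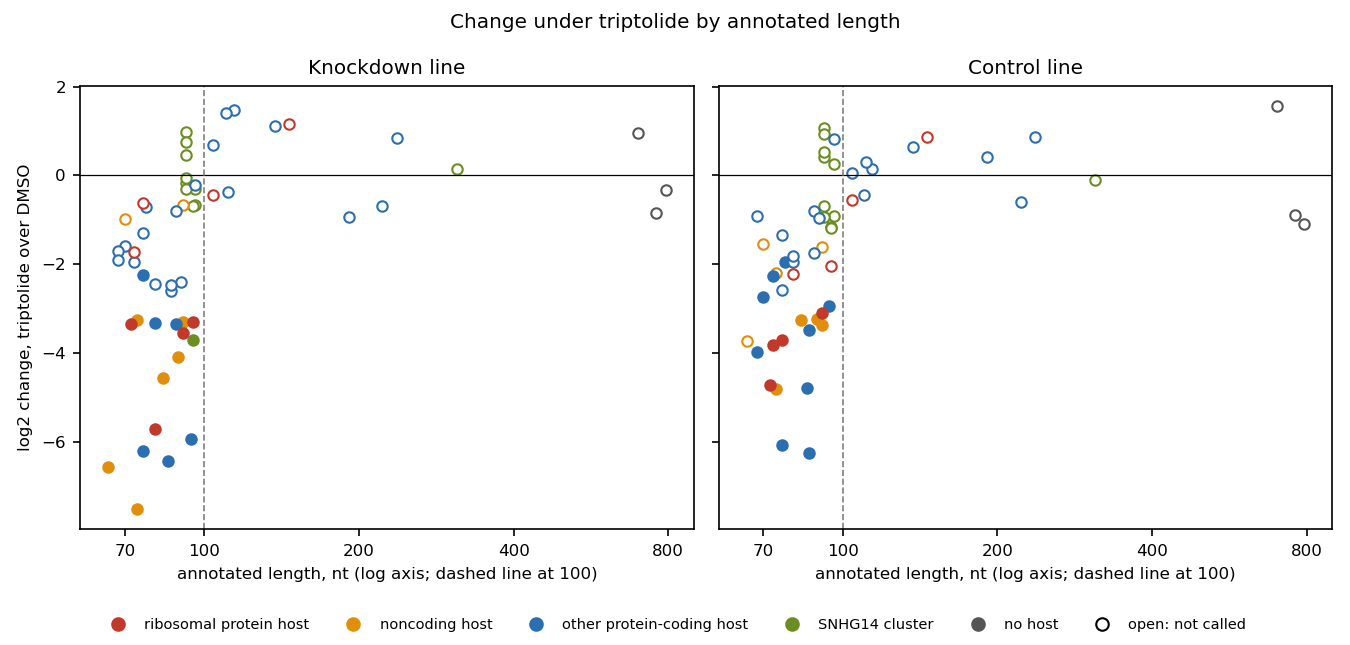
Log2 change with triptolide over DMSO against annotated row length in nt on a log axis, in the knockdown line and the control line, coloured by host class and filled where called. All 17 called rows in each line are under 100 nt, left of the dashed line, and the 14 longer rows lie between -0.94 and 1.48 in knockdown and between -1.10 and 1.56 in control cells.

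SNORD17, SNORD94 and SNORD15B, all over 100 nt, were not called lower. SNORD17 had 40.6, 117 and 16.6 CPM in knockdown libraries with triptolide, against 25.4, 54.6 and 17.3 CPM with DMSO. In control cells SNORD17 had 48.5, 136 and 35.6 CPM with triptolide, against 26.2, 72.6 and 21.3 CPM with DMSO. The groups overlapped in both lines, although in 5 of 6 same-numbered pairs the triptolide library was higher. The log2 changes were 0.84 ± 0.72 (SE, adjusted p = 0.381) and 0.87 ± 0.72 (adjusted p = 0.386). With the block they were 0.64 ± 0.28 (adjusted p = 0.0587) and 0.84 ± 0.28 (adjusted p = 0.0157), and scaling to mitochondrial mRNAs turned the knockdown value to -0.34. SNORD94, a guide for the spliceosomal U6 RNA inside PTCD3, had log2 changes of 1.12 ± 0.57 (adjusted p = 0.135; with the block 0.0204) and 0.63 ± 0.56 (adjusted p = 0.424). PTCD3 fell by 0.62 ± 0.20 and 0.71 ± 0.21 (adjusted p = 0.0255 and 0.0146).

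SNORD15B varied with the replicate number, and so did other longer rows. Outside untreated knockdown cells, the mean of replicate 2 over that of replicate 1 was 27.8 for SNORD89, 21.2 for SNORD8 and 9.84 for SNORD9. It was 0.194 to 0.596 for SNORD67, SNORD91A, SNORD91B and the U3 rows. The part of this spread in the lack of calls among longer rows was not tested. In knockdown cells SNORD15B had 7.88, 253 and 24.4 CPM with triptolide in replicates 1, 2 and 3, against 8.26, 90.9 and 28.2 CPM with DMSO. In control cells it had 8.55, 262 and 65.9 CPM with triptolide, against 10.7, 130 and 43.4 CPM with DMSO. The log2 changes of 1.16 ± 1.25 (SE, adjusted p = 0.495) and 0.86 ± 1.25 (adjusted p = 0.64) were no larger than their errors. Untreated control cells had 8.56, 102 and 47 CPM, close to their DMSO values, but untreated knockdown cells had 102, 146 and 29.1 CPM, so knockdown replicate 1 stood apart from the other libraries of that number.

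The same library stood apart for other rows. SNORD89, in RNF149, had 9.31 CPM in untreated knockdown replicate 1 and 0.0522 to 0.254 CPM in the 5 other libraries numbered 1. SNORD8, in CHD8, had 0.621 CPM against 0 to 0.12 CPM, and its neighbour SNORD9 0.706 CPM against 0 to 0.0963 CPM. SNORD116-18 went the other way, with 8 counts (0.226 CPM) in that library and 242 to 448 counts in the other 5. It had also 1 count in knockdown triptolide replicate 3. Over all tested genes each of the 18 libraries, this one included, matched its own replicate number best, and over the members alone 16 did.

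**Figure D5:**
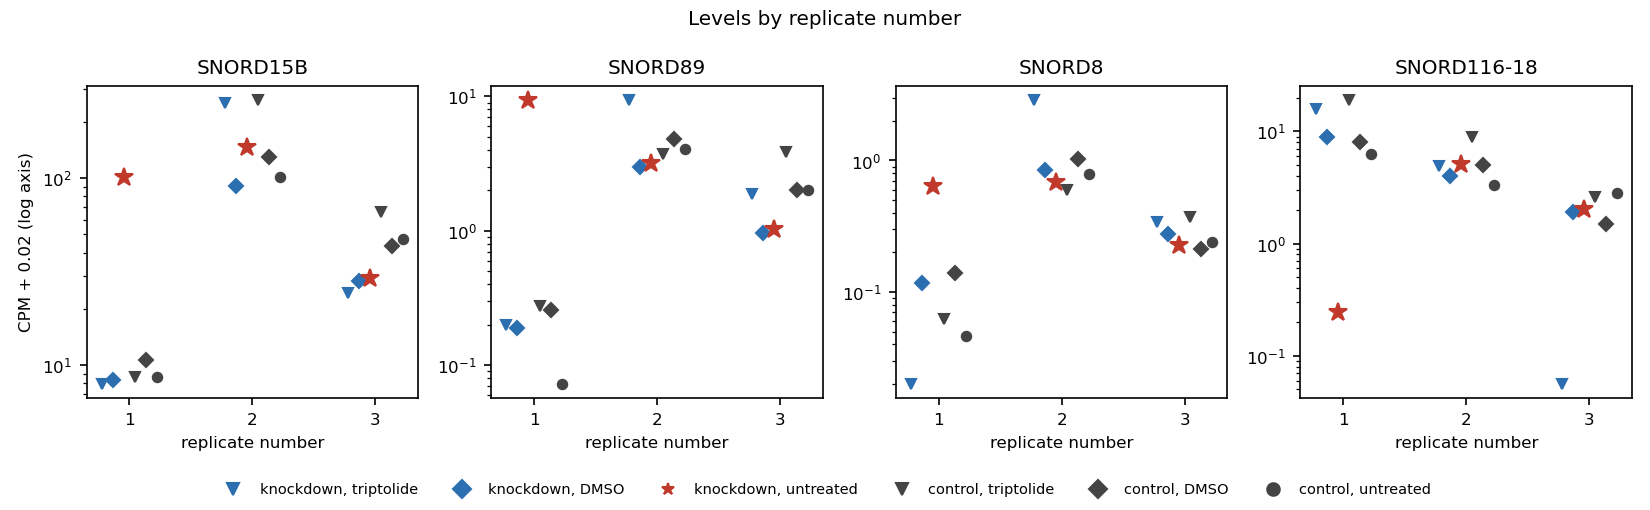
Level of 4 box C/D snoRNA rows, as TMM-scaled CPM plus 0.02 on a log axis, by replicate number, with symbols for the 6 groups and stars for untreated knockdown cells. In replicate 1 the untreated knockdown library lies above the 5 others for SNORD15B, SNORD89 and SNORD8 and below them for SNORD116-18.

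Within the SNHG14 cluster, group means of SNORD116 copies moved in different directions. The 5 member copies numbered 1 to 8 are 93.8 to 99% identical to each other, the 5 numbered 13 to 19 are 85.9 to 100% identical, and between the 2 sets identity is 77.1 to 88.7%. Summed, copies 1 to 8 stood at 1.55 ± 0.76 CPM with triptolide and 2.65 ± 0.90 CPM with DMSO in knockdown cells, and at 1.36 ± 0.17 and 2.80 ± 0.27 CPM in control cells (SD, n = 3 each). Copies 13 to 19 stood at 16.9 ± 14.9 and 11 ± 5.9 CPM in knockdown cells, and at 20.2 ± 13.5 and 11.9 ± 4.4 CPM in control cells. Their sum was higher with triptolide in replicates 1 and 2 of both lines. In replicate 3 it was lower, at 4.69 against 5.74 CPM in knockdown and 6.81 against 7.03 CPM in control cells. In control cells the sums of copies 1 to 8 did not overlap, at 1.23 to 1.55 CPM with triptolide and 2.55 to 3.09 CPM with DMSO. In knockdown cells the sums of copies 1 to 8 overlapped, at 0.748 to 2.25 CPM with triptolide and 1.93 to 3.66 CPM with DMSO. The 2 copies after 19 stood at 0.91 ± 0.58 and 1.01 ± 0.49 CPM in knockdown cells, and at 0.86 ± 0.72 and 0.95 ± 0.33 CPM in control cells. The sums of copies 13 to 19 and of copies after 19 overlapped in both lines. The split by copy number was made after the values were seen, with no test.

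Without the block SNORD116-1 was the 1 member of the cluster called, in knockdown cells, with 0, 0 and 1 counts with triptolide and 12, 5 and 9 counts with DMSO (adjusted p = 0.00288). In control cells it had 2, 1 and 4 counts with triptolide and 12, 9 and 6 with DMSO (adjusted p = 0.172). With the block SNORD116-19 was also called, higher, in knockdown cells, and in control cells SNORD116-7 was called lower (adjusted p = 0.0437) and SNORD116-13 higher (adjusted p = 0.0367). SNORD116-19 held 2415 counts and the identical SNORD116-17 179, and reads that align equally well to both are outside these counts. SNHG14 averaged 38.6 ± 3.7 CPM with triptolide and 38.9 ± 6.3 CPM with DMSO in knockdown cells, and 40.9 ± 3.0 and 39.6 ± 5.2 CPM in control cells. Its log2 changes were -0.01 ± 0.18 and 0.05 ± 0.18 (SE, adjusted p = 0.972 and 0.869).

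The knockdown of ADAR called none of the 56 members against control cells. With triptolide 0 were called, beside 0.0658% of all genes, with DMSO 0, beside 0.094%, and untreated 0, beside 0.0987%. ADAR itself was not called by this test either. Its log2 differences were -1.46 with triptolide, -0.69 with DMSO and -0.70 untreated. With the block ADAR was called lower with triptolide, and not with DMSO or untreated. By the blocked fit the member counts were also 0. Beside them stood 0.385% of all genes higher and 0.258% lower with triptolide. The shares were 0.357% and 0.249% with DMSO, and 0.301% and 0.277% untreated. A count of 0 among 56 members lies near these shares. DESeq2 called 0 members too. At an unadjusted p under 0.05 by edgeR there were 1 higher and 1 lower with triptolide, 0 and 1 with DMSO and 0 and 0 untreated. Since many rows hold few counts, differences of a few fold between the lines could be missed at this depth. On simulated counts in the members' range, the same test on the triptolide comparison of the control line recovered 0% of genes changed 2-fold, 10% at 4-fold, 34% at 8-fold and 54% at 16-fold.

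The smallest p of these comparisons belonged to SNORD100, a guide in RPS12. With triptolide it had 0.811, 0.0935 and 0.215 CPM in knockdown cells, against 0.0423, 0 and 0.0501 CPM in control cells, without overlap. The log2 difference was 3.41 ± 0.96 (SE, edgeR quasi-likelihood adjusted p = 0.721; with the block adjusted p = 0.0782). With DMSO the values were 0.722, 0.276 and 0.71 CPM in knockdown cells and 0.479, 0.336 and 0.548 CPM in control cells, which overlapped. The interaction for SNORD100 was 3.09 ± 1.17 (edgeR adjusted p = 1.00). SNORD116-1, second by p with triptolide, differed by -2.68 ± 0.97, and its interaction was -2.53 ± 1.11 (edgeR adjusted p = 1.00 each). SNORD101, the neighbour of SNORD100 in RPS12, was not chosen by the naming rule. It had 0.315, 0 and 0.322 CPM with triptolide in knockdown cells, against 0.0847, 0.0484 and 0.0501 CPM in control cells, which overlapped.

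SNORD69, in GNL3, had 0.168, 0.166 and 0.142 CPM in knockdown cells with DMSO, against 0.526, 0.336 and 0.581 CPM in control cells. These groups did not overlap, and the log2 difference was -1.57 ± 0.50 (SE, edgeR adjusted p = 0.908; with the block adjusted p = 0.238). In untreated cells it had 0.282, 0.387 and 0.448 CPM in knockdown and 0.287, 0.336 and 0.498 CPM in control cells. SNORD9 had the smallest edgeR p untreated (adjusted p = 1.00), with 0.706, 0.528 and 0.209 CPM in knockdown and 0.0261, 0.269 and 0.0277 CPM in control cells. Its log2 difference of 2.20 ± 1.11 became 1.81 without knockdown replicate 1, the library that stood apart. SNORD127, second there, differed by 1.5 ± 0.83 (edgeR adjusted p = 1.00).

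DMSO itself called 0 members against untreated cells in knockdown and 0 in control cells, beside 0.0% of all genes in both. At an unadjusted p under 0.05 by edgeR there was 1 lower member in knockdown cells, SNORD69, and there were 0 in control cells. The smallest p there belonged to SNORD111B, with a log2 change of -1.49 ± 0.82, and SNORD91A, with 2.01 ± 1.17 (SE, edgeR adjusted p = 1.00 each). In knockdown cells they belonged to SNORD69, with -1.21 ± 0.50, and SNORD9, with -1.64 ± 1.05 (edgeR adjusted p = 1.00 each). DESeq2 called 0 in both.

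Some genes for the proteins of the pathway were called with triptolide. Of the 4 core proteins of box C/D particles, NOP56 fell, to 68.3 ± 15 CPM with triptolide against 185 ± 56.3 CPM with DMSO in knockdown cells, and to 68.9 ± 14.7 against 195 ± 46.4 CPM in control cells (SD, n = 3 each). Its log2 changes were -1.44 ± 0.32 and -1.5 ± 0.32 (SE, adjusted p = 0.00219 and 0.00195). SNU13, the protein that first binds the C and D boxes, was called higher in knockdown cells (0.68 ± 0.25, adjusted p = 0.0427; -0.78 when scaled to mitochondrial mRNAs, 0.59 above the median gene there), while FBL, the methyltransferase fibrillarin, and NOP58 passed in neither line. Of 10 assembly factors, 4 were lower in knockdown (RPAP3, NUFIP1, ZNHIT6, NOPCHAP1) and 5 in control cells (these and ECD), with 0 higher. Among all genes tested 18.9% were lower and 16.7% higher in knockdown cells, and 16.0% and 14.9% in control cells. Of 7 processing and turnover genes, EXOSC10, the nuclear exosome nuclease that trims snoRNA ends, fell in both lines, by 1.20 ± 0.26 and 1.47 ± 0.26 (adjusted p = 0.00198 and 0.000535). DBR1, which opens the intron lariat, was called higher in control cells (0.85 ± 0.21, adjusted p = 0.00506), where it stayed above 0 under the 5 scalings, and its knockdown value was 0.52 ± 0.21 (adjusted p = 0.0588). With the block the counts in knockdown cells were 2 higher and 1 lower core proteins, 3 and 5 assembly factors and 1 and 4 processing genes. In control cells they were 1 and 1, 3 and 5, and 1 and 3. Beside these, 29.1% of all genes were higher and 28.1% lower in knockdown cells, and 26.1% and 26.0% in control cells. The lists are short and were not tested as sets. None of the genes in these 3 lists was called between knockdown and control cells by edgeR with or without the block.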

How the data were processed

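Total RNA of 18 libraries was measured (3 biological replicates in each of 6 groups). The authors deposited raw counts per gene. Per the submitters' processing notes, reads were aligned to hg19 with STAR 2.4.2a and counted with HTSeq 0.6.1, and DESeq2 1.4.5 in R 3.1 was used. The counting mode, its strand setting and its annotation release are not given in the sources used here. The files tally reads with several alignments apart from genes, which lowers rows with near-identical copies. Of 60252 IDs, 58821 (97.6%) matched GENCODE release 44 on GRCh37, which gave symbols, positions and host genes (of the same-strand genes spanning the row, other than small RNAs, that of highest count). The 5 tally rows outside genes, 24.9 to 35.4% of each file's sum, were left out.

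After TMM scaling, edgeR 4.0.16 (R 4.3.3) ran its quasi-likelihood test on the counts, two-sided, in 1 fit of all 18 libraries with 12 residual degrees of freedom. 21285 genes passed its low-count filter by group, and Benjamini-Hochberg adjustment ran over all of them. SE is the log2 change divided by the square root of F. Fitted changes of rows with 0 counts in a group depend on the prior count.

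Residuals of libraries with equal replicate numbers correlated at 0.31 to 0.69 (45 pairs), others at -0.52 to 3.4e-05 (90 pairs), so the numbers pair libraries and a fit with the replicate block (10 residual degrees of freedom) appears beside counts and named rows whose calls it changes. No library copied another (chi-square per degree of freedom at least 53.4 between replicates). The labels call the replicates biological and do not name separate cultures, so p-values measure the spread between these samples. DESeq2 1.42.0, 4 other scalings, no filter and leaving out each library were the alternatives. The test was checked on simulated data (20275 genes, 3 false calls).

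Library totals of 26.7e6 to 35.7e6 leave many members with single-digit counts. Named were up to 8 members per direction called in both lines, the 2 smallest p of each other comparison and the 6 highest levels per length, with U3 rows, the SNHG14 cluster and hosts of 3 or more members as ranges. Members and lists were chosen with earlier results of these data known. C and D box letters were searched on both strands of GRCh37. The sequence of 1 member and the summed level of 1 marker list are not reported here.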

Additional observations from a re-analysis of the deposited data

How the results depend on the processing

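No change of a named member called without the block turned its sign under the alternatives run. The paired fit, which adds a block for the replicate number, gave 2 higher members in each line where the fit without it gave 0, with 24 lower in knockdown and 25 in control cells; it changed the calls of no comparison between lines or of DMSO. Without the low-count filter 3 members were higher in each line, among 63 tested. Scaled to library totals without TMM, 27 members were lower in knockdown and 28 in control cells, with median changes of -1.73 and -1.88 on the log2 scale. Scaled to 13 mitochondrial mRNAs the counts were 36 and 29 and the medians -2.42 and -2.17. These settings move all genes. The median gene stood at -0.67 and -0.60 under library totals and at -1.36 and -0.79 under the mitochondrial scaling. Under totals without mitochondrial rRNA it stood at -0.14 and -0.13. Apart from the paired fit, the share of all genes called under each alternative is not given here. The larger counts are therefore not read as a result about the members. Leaving out 1 library gave 13 to 18 lower and 0 to 1 higher members in knockdown cells, and 12 to 17 lower and 0 to 0 higher in control cells. The medians then ranged from -1.68 to -0.56 in knockdown and from -1.93 to -1.0 in control cells. The same omissions gave 0 called members in every comparison of the lines, of their difference in response and of DMSO. For the named members, 312 values with a library left out held 301 with an unchanged call, 9 that lost it and 2 that gained it. Of 350 values under the other settings, 331 were unchanged, 1 lost its call and 18 gained one. In control cells SNORD127 lost its call without DMSO replicate 1 or 2 or triptolide replicate 1 or 3 (adjusted p by edgeR 0.0631 to 0.116), and SNORD69 without triptolide replicate 3 (0.0524). SNORD116-19, higher with the block in knockdown cells, stood at -0.41 there under mitochondrial scaling. Depth limits many rows: 31 of 63 held under 200 counts in 18 libraries.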
